A study of Mus musculus with 17 samples.

Results

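The genes of the proteasome were described in glomeruli-enriched kidney cortex of BTBR mice. They were chosen by symbol: every mouse gene named Psma to Psmg followed by a number, with pseudogenes left out, which gave 50 of the 53379 genes in the count table. For the description they fall into 5 genes of the immunoproteasome (Psmb8, Psmb9, Psmb10, Psme1 and Psme2), 31 genes of the constitutive particle and 14 other genes. The 14 are 7 assembly chaperones, 2 further activators, 2 core subunits of the testis and the thymus, an inhibitor, Psme2b (a near copy of Psme2), and Psmc3ip. Psmc3ip carries a matching symbol but encodes a recombination factor and no proteasome subunit.

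The proteasome degrades proteins tagged with ubiquitin. Its core particle, the 20S, is a barrel of alpha and beta rings with proteolytic sites on its inner face, and the 19S regulatory particle recognises, unfolds and feeds substrates into it. In leukocytes, and in other cells exposed to interferon gamma, newly made cores take up the catalytic subunits encoded by Psmb8, Psmb9 and Psmb10 in place of those encoded by Psmb5, Psmb6 and Psmb7, and the activator PA28, made of the products of Psme1 and Psme2, can cap them. Many of the peptides that this form releases are presented on MHC class I molecules.

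Messenger RNA was sequenced from 7 BTBR ob/ob mice given atrasentan, 5 BTBR ob/ob mice given saline and 5 wild type BTBR mice. The drug, which blocks the endothelin A receptor, was dosed through the drinking water at 5 mg per kg of body weight daily. Dosing with drug or saline began at week 18 of age and lasted 6 weeks, and wild type mice, with no treatment named, were killed at the same 24 weeks. The Lep ob mutation, carried in every cell, removes leptin and makes BTBR mice obese and diabetic, and there was no atrasentan group of wild type mice. The genotype label of the atrasentan group reads 'BTBR ob' and those of the others read 'ob/ob-d30' and 'WT-d30', and the sources used here do not say what d30 means. The protocol counts as many mice as there are libraries in each group, so errors are read as those between animals. The tissue still held cells of other kinds. Library numbers below only name mice and pair none of them.

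Libraries held 29161833 to 52528747 reads on genes, of which 0.441% to 0.654% fell on the 50 genes. Markers of podocytes, glomerular endothelium, mesangium and proximal tubule were detected in all 17 libraries, and summed podocyte markers were at 2149 to 5007 CPM (read counts scaled for library size) with atrasentan, 4534 to 9266 CPM in saline mice and 8443 to 13440 CPM in wild type mice. Summed proximal tubule markers ran from 183 to 1294 CPM in atrasentan mice, from 1824 to 8711 CPM in saline mice and from 1013 to 2393 CPM in wild type mice. Reads outside genes made up 3.17% to 5.65% of an atrasentan library, 5.95% to 8.17% of a saline library and 6.26% to 8.58% of a wild type library. Reads with several alignments, which were not assigned to any gene, made up 23.9% to 31.8% in atrasentan mice, 24.5% to 25.5% in saline mice and 23.4% to 28.1% in wild type mice. In whole tissue, fewer cells of a type and less RNA per cell cannot be told apart.

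Of the 50 genes, 49 passed the low-count filter and were tested. The exception was Psmb11, the core subunit of the thymus cortex, which had 0 reads in all 17 libraries; over 639099926 gene reads a count of 0 allows up to 3 reads, or 0.00469 CPM. Psma8, the testis core subunit, passed at a low level, with a mean of 4.29 ± 2.28 CPM in atrasentan mice (SD, n = 7), 2.84 ± 0.573 CPM in saline mice (n = 5) and 2.98 ± 0.645 CPM in wild type mice (n = 5). On a scale of CPM per kb of transcript, Psma7 (a core alpha subunit) and Psmb6 (a core catalytic subunit) held the first 2 ranks in each of the 3 groups. The immunoproteasome genes ranked lower than these and differently by group. Psmb9 was at rank 16 in atrasentan mice, rank 33 in saline mice and rank 33 in wild type mice, and Psmb8 was at ranks 18, 32 and 32 in the same groups.

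Short stretches before the RefSeq start sites (GRCm38.p6) are printed for immunoproteasome genes and for constitutive genes described below, because genes of both kinds differed together between groups. The 250 bases before each start were searched on both strands for 3 motifs: GAAA followed after any 2 bases by GAAA again, bound by interferon regulatory factors (IRF), TTCNNNGAA, the interferon gamma activated site (GAS), and TGACNNNGC, the antioxidant response element core (ARE). Capitals mark a match.
Psmb8, chr17:34198088-34198116, plus strand, GAS: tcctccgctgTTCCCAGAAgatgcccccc
Psmb10, chr8:105938445-105938524, minus strand, no match: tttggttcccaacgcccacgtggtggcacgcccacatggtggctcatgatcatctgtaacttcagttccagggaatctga
Psme1, chr14:55578280-55578359, plus strand, no match: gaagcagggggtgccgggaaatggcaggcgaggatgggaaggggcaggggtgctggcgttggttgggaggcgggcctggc
Psme2, chr14:55591114-55591193, minus strand, no match: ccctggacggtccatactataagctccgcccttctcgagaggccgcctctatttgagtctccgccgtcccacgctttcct
Psmb5, chr14:54618023-54618068, minus strand, ARE: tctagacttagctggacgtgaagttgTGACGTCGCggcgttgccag
Psmb6, chr11:70525322-70525356, plus strand, ARE: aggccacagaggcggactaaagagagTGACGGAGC
Psmd4, chr3:95042659-95042720, minus strand, IRF: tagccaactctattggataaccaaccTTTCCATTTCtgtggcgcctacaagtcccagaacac
Psmb3, chr11:97703245-97703306, plus strand, IRF: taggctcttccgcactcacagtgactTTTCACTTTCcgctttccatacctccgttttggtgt

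The Psmb8 stretch lies within exons of GENCODE transcripts. The 250 bases searched for Psmb8, Psmb9 and Psme1, and the Psme1 stretch, lie inside these genes as GENCODE places them. For these genes the search therefore did not cover the bases before the GENCODE start. No stretch is printed for Psmb9, whose window had no match. RefSeq windows were found for 42 of the 50 genes (45 windows). The IRF motif was in 0 of 6 immunoproteasome windows and 2 of 27 constitutive windows (7.41%), against 2.98% of all 32851 windows. The GAS motif was in 1 of the 6, that of Psmb8, and in 0 of the 27, against 7.02% of all windows. The ARE core was in 0 of the 6 and 4 of the 27 (14.8%), against 10.2% of all windows. A match is only a match of letters, and a window without one lacks those letters in these 250 bases.

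Atrasentan against saline compares ob/ob mice given the drug for 6 weeks with ob/ob mice given saline. The genotype labels of these groups also differ, as do their shares of reads outside genes. All 5 immunoproteasome genes were higher with atrasentan by edgeR's quasi-likelihood test (Benjamini-Hochberg adjusted p under 0.05), with a median log2 fold change of 1.19. Of the 31 constitutive genes 14 were higher and 0 lower, with a median of 0.24. Of 17766 genes tested, 33.8% were called changed in this comparison, 15.3% higher and 18.5% lower, and the median log2 fold change over all of them was -0.01. Over the 49 genes tested, 23 were higher, 1 was lower (Psme4) and 25 were not called.

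Psmb8 (chr17:34197721-34201454, GRCm38) encodes the immunoproteasome's chymotrypsin-like subunit. Its level was 214, 270, 227, 83.4, 123, 133 and 155 CPM in the atrasentan mice, 55.6, 55.6, 37.7, 58.1 and 70.4 CPM in the saline mice and 88.9, 65.7, 47.0, 55.9 and 64.2 CPM in wild type mice. The first 3 atrasentan mice were the highest of all, and every atrasentan mouse lay above every saline mouse, while mouse 4 of the atrasentan group lay below wild type mouse 1. The log2 fold change was 1.63 ± 0.25 (SE) against saline (adjusted p = 0.00032) and 1.42 ± 0.25 against wild type (adjusted p = 0.000535).

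Psmb9 (chr17:34181987-34187764) encodes the caspase-like site's replacement and lies beside Tap1, the peptide transporter gene. Its level was 200.2, 251.5, 182, 69.0, 93.5, 103 and 111 CPM in atrasentan mice, 41.8, 37.3, 23.9, 39.8 and 57.6 CPM in saline mice and 77.5, 45.2, 38.9, 39.9 and 46.6 CPM in wild type mice. The atrasentan and saline mice did not overlap, and wild type mouse 1 stood above the other wild type mice and above atrasentan mouse 4. The log2 fold change was 1.85 ± 0.31 against saline (adjusted p = 0.00047) and 1.54 ± 0.31 against wild type (adjusted p = 0.00125).

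Psmb10 (chr8:105935735-105938444) encodes the trypsin-like subunit of the immunoproteasome. Its level was 230, 319, 275, 95.8, 159, 142 and 184 CPM in atrasentan mice, 73.3, 88.0, 64.0, 101 and 114 CPM in saline mice and 98.0, 116, 82.0, 81.1 and 112 CPM in wild type mice. Atrasentan mouse 4 lay within the range of both other groups, and the remaining 6 lay above every saline and wild type mouse. The log2 fold change was 1.19 ± 0.24 against saline (adjusted p = 0.00171) and 1.04 ± 0.24 against wild type (adjusted p = 0.00416).

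Both PA28 genes were higher as well, by less. Psme1 (chr14:55578123-55581529), for the alpha subunit, was at 166, 233, 223, 127, 147, 130 and 171 CPM in atrasentan mice, 94.5, 98.7, 90.4, 104 and 119 CPM in saline mice and 118, 142, 103, 97.6 and 116 CPM in wild type mice. Every atrasentan mouse lay above every saline mouse, and atrasentan mice 4 and 6 lay below wild type mouse 2. Its log2 fold change was 0.76 ± 0.15 against saline (adjusted p = 0.00151) and 0.57 ± 0.15 against wild type (adjusted p = 0.00928).

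Psme2 (chr14:55587441-55591113), for the beta subunit, was at 79.2, 115, 110, 46.4, 69.7, 53.1 and 67.9 CPM in atrasentan mice, 38.2, 37.6, 36.6, 45.6 and 49.5 CPM in saline mice and 48.1, 60.7, 43.3, 35.7 and 52.8 CPM in wild type mice. Atrasentan mouse 4 lay inside the saline range, and mice 4 and 6 lay inside the wild type range. The log2 fold change was 0.90 ± 0.20 against saline (adjusted p = 0.00346) and 0.68 ± 0.20 against wild type (adjusted p = 0.0177). Of the 50-base windows along the Psme2 transcript, 59.3% are also found in Psme2b or another gene, where reads may have been left unassigned. Psme2b followed in the same direction at a lower level, 11.8 ± 2.80 CPM in atrasentan mice (SD, n = 7), 7.44 ± 1.81 CPM in saline mice (n = 5) and 6.70 ± 1.91 CPM in wild type mice (n = 5), with 69.3% of its windows shared. Its log2 fold change against saline was 0.66 ± 0.22 (edgeR adjusted p = 0.0259). That call was lost without saline mice 1 and 3 (0.44, edgeR adjusted p = 0.243), without saline mouse 1, saline mouse 3 or atrasentan mouse 1 alone (0.56 to 0.60, edgeR adjusted p of 0.0504 to 0.0809), and with glomerular share in the model (0.45, edgeR adjusted p = 0.368).

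**Figure D1:**
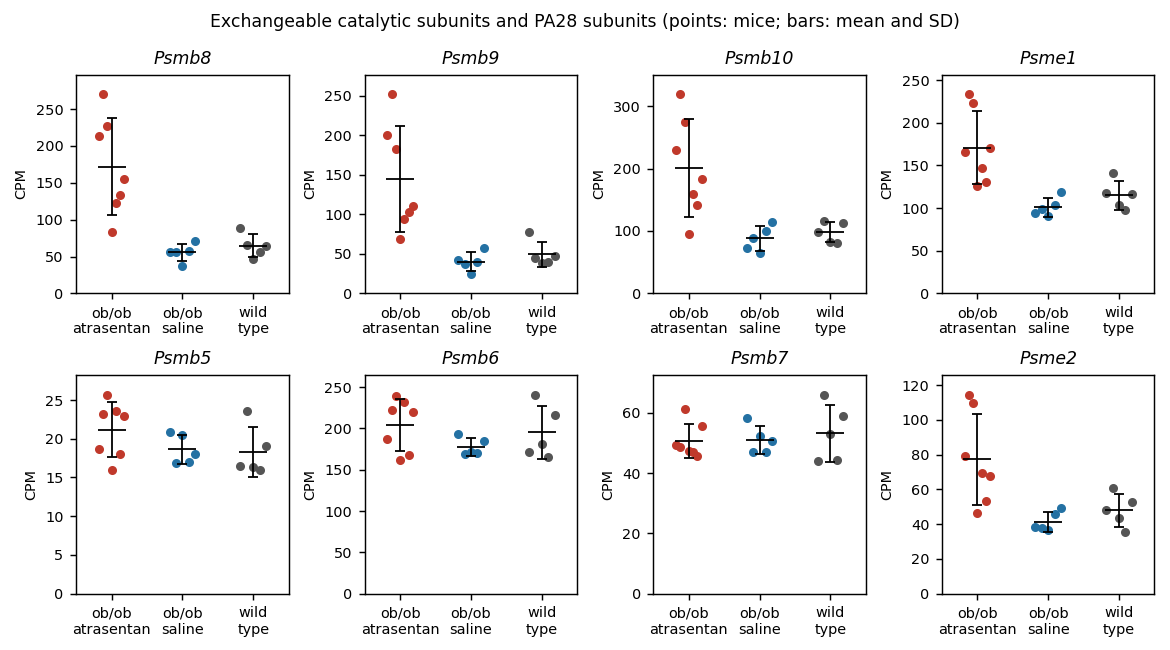
Level in CPM (linear axes from 0) of the 3 immunoproteasome catalytic genes and Psme1 (upper row) and of the 3 constitutive catalytic genes and Psme2 (lower row) in mice given atrasentan (n = 7), mice given saline (n = 5) and wild type mice (n = 5); points are mice and bars the mean and SD. All atrasentan points of Psmb8, Psmb9 and Psme1 lie above all saline points, and the groups overlap for Psmb5, Psmb6 and Psmb7.

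The constitutive catalytic genes were not called in any comparison. Psmb5, which Psmb8 can replace, averaged 21.2 ± 3.57 CPM in atrasentan mice (SD, n = 7), 18.6 ± 1.91 CPM in saline mice (n = 5) and 18.3 ± 3.24 CPM in wild type mice (n = 5), a log2 difference of 0.18 ± 0.13 (SE) against saline. Psmb6, which Psmb9 can replace, averaged 204 ± 31.4, 178 ± 10.8 and 195 ± 32.0 CPM in the same groups, a difference of 0.20 ± 0.12 against saline. Psmb7, which Psmb10 can replace, averaged 50.7 ± 5.65, 51.0 ± 4.67 and 53.2 ± 9.45 CPM, a difference of -0.01 ± 0.11 against saline. The adjusted p of these 3 genes against saline ran from 0.193 to 0.952, which does not show equal levels. Psmb5 shares 57.1% of its 50-base windows with other genes, among them the pseudogene Psmb5-ps and Mir686, which overlaps it on the same strand. Psmb7 shares 28.1% with the opposite-strand gene Nek6.

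Transcripts of each pair of exchangeable subunits were therefore compared within each library as the difference of log2 CPM, which hardly depends on library scaling. This compares transcripts and does not measure exchange in assembled particles. Psmb8 minus Psmb5 was 3.52, 3.54, 3.14, 2.38, 2.37, 2.88 and 2.76 in atrasentan mice, 1.41, 1.72, 0.88, 1.77 and 1.96 in saline mice and 2.43, 1.47, 1.52, 1.81 and 1.75 in wild type mice. Every atrasentan value lay above every saline value, and wild type mouse 1 lay above atrasentan mice 4 and 5. The group means differed by 1.39 between atrasentan and saline (exact two-sided permutation p = 0.00253) and by 1.14 between atrasentan and wild type (exact p = 0.00758).

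Psmb9 minus Psmb6 averaged -0.62 ± 0.61 in atrasentan mice (SD, n = 7), -2.20 ± 0.41 in saline mice (n = 5) and -2.01 ± 0.50 in wild type mice (n = 5). The atrasentan mean was higher by 1.58 than the saline mean, again with no overlap (exact permutation p = 0.00253), and by 1.39 than the wild type mean (exact permutation p = 0.00758). Psmb10 minus Psmb7 averaged 1.89 ± 0.54, 0.76 ± 0.42 and 0.88 ± 0.19 in the same groups, with differences of 1.13 against saline (exact permutation p = 0.00758) and 1.01 against wild type (exact permutation p = 0.00505). Adjusted over the 9 tests, all 6 of these had an exact permutation p of 0.0114. The smallest two-sided exact p that this test can give for 7 against 5 mice is 0.00253. The ratios without overlap between atrasentan and saline were at that limit. Between saline and wild type mice the 3 ratios differed by -0.25, -0.19 and -0.12, less than the SD within either of these groups (adjusted exact permutation p of 0.51 to 0.556).

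**Figure D2:**
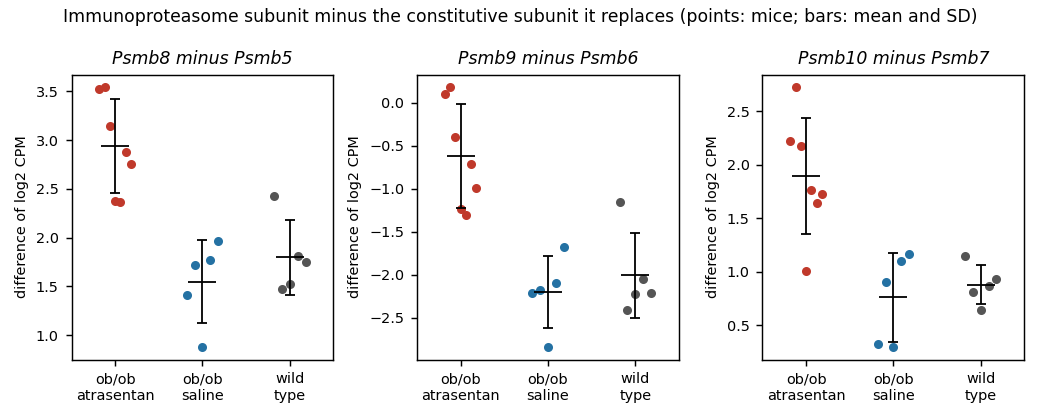
Difference of log2 CPM between each immunoproteasome catalytic gene and the constitutive gene it replaces, in mice given atrasentan (n = 7), mice given saline (n = 5) and wild type mice (n = 5); points are mice, bars the mean and SD. Atrasentan and saline mice do not overlap for Psmb8 minus Psmb5 and Psmb9 minus Psmb6, and 1 atrasentan mouse at 1.01 lies within both other groups for Psmb10 minus Psmb7.

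On the scale of CPM per kb, Psmb8, Psmb9 and Psmb10 together made up 40.1% to 63.3% of the summed level of the 6 catalytic genes in atrasentan mice (median 49.6%). The share was 24.0% to 36.9% in saline mice (median 32.3%) and 29.2% to 40.7% in wild type mice (median 31.8%). All atrasentan mice lay above all saline mice, and atrasentan mouse 4 lay below wild type mouse 1. The share is one of transcripts and says nothing of assembled particles. Of their 50-base windows, Psmb5 shares 57.1%, Psmb7 28.1% and Psmb6 2.67% with other genes, against 5.83% for Psmb8, 12.5% for Psmb9 and 0% for Psmb10. Reads there may have been left unassigned, so the share may be too high in every group.

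The spread among mice was also described for the gene classes. The coefficient of variation of CPM over the 5 immunoproteasome genes had a median of 38.5% in atrasentan mice, 21.04% in saline mice and 19.6% in wild type mice. Over the 31 constitutive genes it was 13.1% in atrasentan mice, 6.59% in saline mice and 15.5% in wild type mice, and over all genes tested 24.2%, 19.3% and 18.6%. These spreads were not tested against each other.

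Among the constitutive genes, those of the 19S particle made up 9 of the 14 called higher against saline. They included 5 of the 6 ATPase subunits, which unfold substrates (median log2 fold change 0.29 over the 6), and 4 of 11 non-ATPase subunits. Of the 14 core genes 5 were called, namely Psma1, Psma7, Psmb1, Psmb2 and Psmb3. The core and the 19S were not tested against each other. The 17 constitutive genes not called had log2 fold changes of -0.01 to 0.39.

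Psmd7, a 19S lid subunit that pairs with the deubiquitinase, was at 186, 225, 219, 181, 254, 181 and 209 CPM in atrasentan mice, 161, 155, 144, 153 and 149 CPM in saline mice and 162, 218, 156, 151 and 165 CPM in wild type mice. Psmd4, a ubiquitin receptor, was at 166, 218, 215, 160, 206, 180 and 211 CPM in atrasentan mice, 154, 142, 137, 137 and 146 CPM in saline mice and 139, 170, 145, 136 and 144 CPM in wild type mice. For both genes every atrasentan mouse lay above every saline mouse, and wild type mouse 2 stood above the rest of its group. The log2 fold change against saline was 0.45 ± 0.10 for Psmd7 (edgeR adjusted p = 0.0039) and 0.44 ± 0.09 for Psmd4 (edgeR adjusted p = 0.00197).

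Smaller and less stable rises were those of Psmb3 and Psma7, which build the core. Psmb3 averaged 49.0 ± 9.75 CPM in atrasentan mice (SD, n = 7), 36.6 ± 1.68 CPM in saline mice (n = 5) and 42.7 ± 9.57 CPM in wild type mice (n = 5), a log2 fold change of 0.42 ± 0.15 (SE) against saline (edgeR adjusted p = 0.0342). Psma7 averaged 241 ± 49.2, 182 ± 13.4 and 210 ± 34.5 CPM in the same groups, a log2 fold change of 0.41 ± 0.14 against saline (edgeR adjusted p = 0.0287). Both calls were lost among the libraries with fewer reads of several alignments, described below, and 55.8% of the Psmb3 windows are shared with copies.

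Among the other genes, Psmf1, which encodes the inhibitor PI31, was at 58.4 to 68.1 CPM in atrasentan mice (median 60.7), at 58.0, 49.8, 51.3, 48.7 and 55.1 CPM in saline mice and at 52.0, 49.4, 47.8, 48.1 and 46.3 CPM in wild type mice. All atrasentan mice lay above all others, with log2 fold changes of 0.23 ± 0.07 against saline (edgeR adjusted p = 0.0134) and 0.34 ± 0.07 against wild type (edgeR adjusted p = 0.00112). With the share of reads outside genes in the model neither call held, at 0.07 against saline (edgeR adjusted p = 0.761) and 0.16 against wild type (edgeR adjusted p = 0.572), and with glomerular share the call against saline was lost at 0.22 (edgeR adjusted p = 0.209). Of the 7 assembly chaperone genes 2 were higher against saline, both for chaperones of the 19S base. Psmd9 averaged 66.8 ± 7.58 CPM in atrasentan mice (SD, n = 7), 52.5 ± 4.69 CPM in saline mice (n = 5) and 52.0 ± 5.08 CPM in wild type mice (n = 5), a log2 fold change of 0.35 ± 0.09 against saline (edgeR adjusted p = 0.00897). Psmd10 averaged 53.4 ± 8.15, 42.1 ± 1.23 and 47.2 ± 9.33 CPM in the same groups, with 0.34 ± 0.12 against saline (edgeR adjusted p = 0.0355). The Psmd10 call was lost with glomerular share, reads outside genes or reads of several alignments in the model, and without saline mice 1 and 3. It was also lost among the libraries with fewer reads of several alignments, described below. The Psmd9 call was lost among those libraries and with glomerular share or reads outside genes in the model. Psme3, the nuclear activator PA28 gamma, averaged 132 ± 6.90 CPM in atrasentan mice (SD, n = 7), 130 ± 14.0 CPM in saline mice (n = 5) and 128 ± 10.04 CPM in wild type mice (n = 5), and was not called in any comparison.

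Psme4, which encodes the activator PA200, was the only gene called lower. It was at 20.5 to 31.6 CPM in atrasentan mice (median 24.6), at 37.7, 28.6, 40.3, 29.0 and 30.8 CPM in saline mice and at 23.8, 23.3, 29.4, 28.3 and 25.5 CPM in wild type mice. Saline mice 1 and 3 were the highest, and the groups overlapped. Its log2 fold change was -0.38 ± 0.13 against saline (edgeR adjusted p = 0.0261), and the call was lost without saline mice 1 and 3, at -0.21 (edgeR adjusted p = 0.323).

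**Figure D3:**
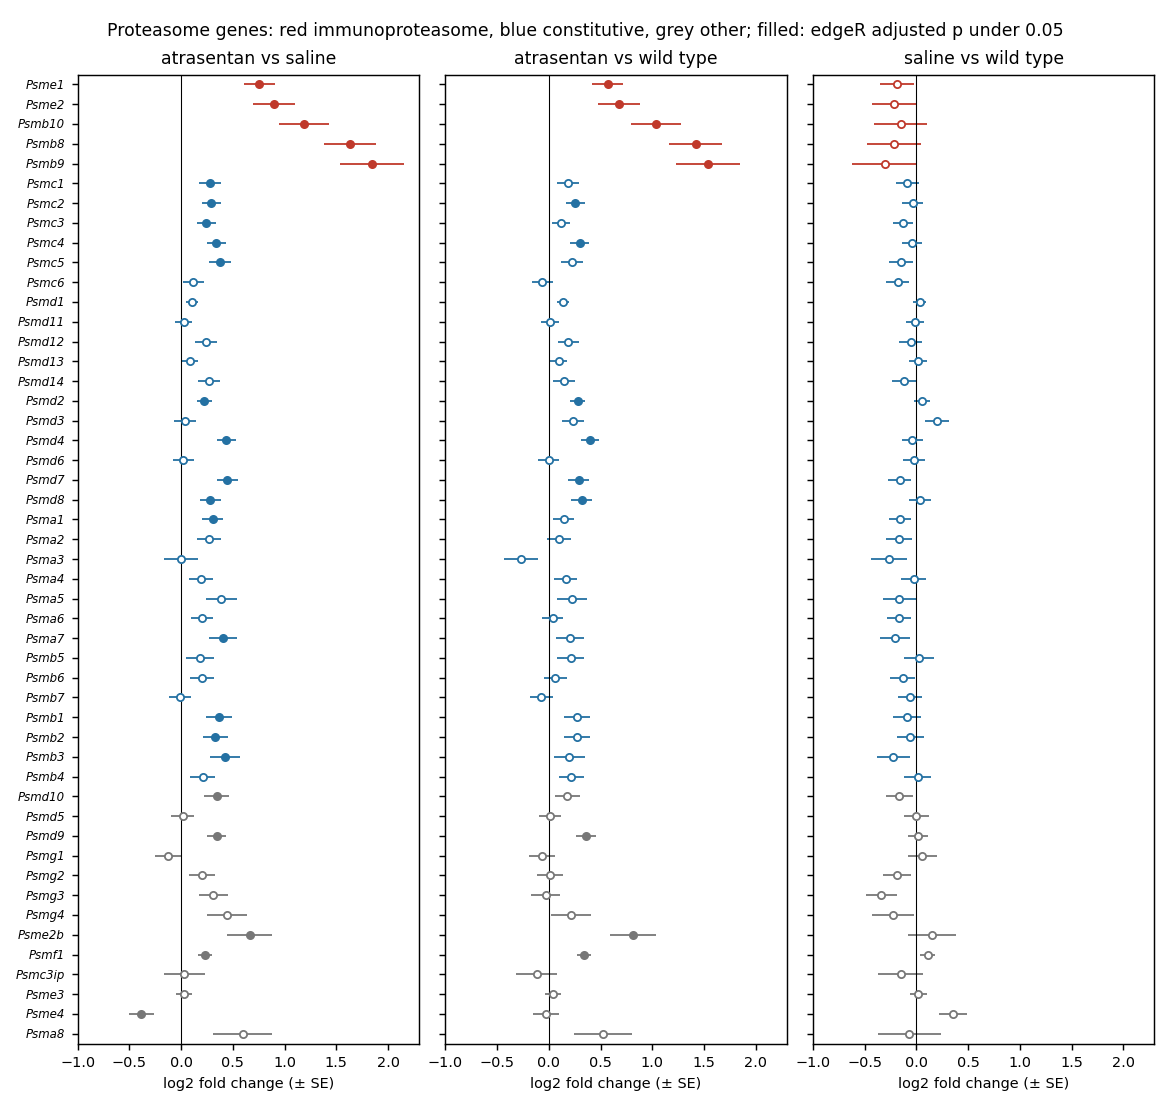
Log2 fold change ± SE of the 49 genes tested, in atrasentan against saline, atrasentan against wild type and saline against wild type; red genes are immunoproteasome, blue constitutive and grey other, and filled points had an edgeR adjusted p under 0.05. Filled points number 24, 14 and 0 in the 3 comparisons, and the 5 red points lie to the right of the blue ones in the first 2.

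In atrasentan against saline the mice did not overlap at all for 8 of the 49 genes, all higher: 3 immunoproteasome genes, Psmc4, Psmd4, Psmd7, Psmd10 and Psmf1. Of all genes tested, 6.07% were higher without overlap and 5.76% lower, and 0 of the 49 were lower. Psmd10, and Psma1, Psmb1 and Psmb2 above, were named after their values were seen. A pair of covariates changed the calls. With the glomerular share of each library in the model (podocyte minus proximal tubule markers), 2 of the 5 immunoproteasome genes stayed called, Psmb8 (log2 fold change 1.53, edgeR adjusted p = 0.0206) and Psmb9 (1.70, adjusted p = 0.0307), while Psmb10 (1.08, adjusted p = 0.0656), Psme1 (0.73, adjusted p = 0.0582) and Psme2 (0.89, adjusted p = 0.0739) kept folds close to those above but were no longer called. Of the 31 constitutive genes 1, Psmd4, was then called, at a class median of 0.32. Podocyte markers enter the glomerular share, and 5 of 10 of them were themselves lower with atrasentan than with saline. It is therefore not a measure of glomerular tissue alone. With the share of reads outside genes in the model, 5 of 5 stayed called and 0 of 31 constitutive genes did. Every atrasentan library had a lower share than every other library, so this share and the treatment cannot be told apart. Without saline mice 1 and 3, the libraries with the most proximal tubule RNA, 5 of 5 immunoproteasome genes and 3 of 31 constitutive genes (Psmd2, Psmd4 and Psmd7) were called higher. Calls fell over all genes as well. Of these, 2713 were higher with none of these changes and 427 with glomerular share in the model. The number was 564 with the share of reads outside genes and 1015 without saline mice 1 and 3.

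Atrasentan against wild type shares its atrasentan libraries with the comparison above. Here 5 of 5 immunoproteasome genes were higher (median log2 fold change 1.04), as were 6 of 31 constitutive genes (median 0.19), all of them 19S subunits, and 0 of 49 genes were lower. Over all genes tested 29.2% were called, 14.7% higher and 14.5% lower, and the median was -0.01. All 14 genes called against wild type were among the 23 called against saline. Apart from the 5, Psme2b (0.81 ± 0.22, edgeR adjusted p = 0.00973) and Psmf1, given above, the largest rises were those of Psmd4 (0.40 ± 0.09, edgeR adjusted p = 0.00359), Psmd9 (0.36 ± 0.09, edgeR adjusted p = 0.00768), Psmd8 (0.32 ± 0.10, edgeR adjusted p = 0.0254) and Psmc4 (0.30 ± 0.09, edgeR adjusted p = 0.0225). Psmd8 is a 19S lid subunit and Psmc4 a 19S ATPase. Calls of these 2 genes were lost with upper-quartile scaling (edgeR adjusted p of 0.0804 and 0.0986). They were also lost without wild type mouse 3 or 4 alone (edgeR adjusted p of 0.0612 to 0.0658). Those of Psmd4, Psmd9, Psmd8 and Psmc4 were all lost with reads outside genes in the model. Those of Psmd9, Psmd8 and Psmc4 were lost among the libraries with fewer reads of several alignments, described below.

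No immunoproteasome gene was free of overlap with wild type, where 6.16% of all genes tested were higher without overlap and 7.06% lower. Psmd2 and Psmf1 were (2 of 49, both higher), and Psmd2 was named after its values were seen. With upper-quartile scaling, 2 rather than 6 constitutive genes and again 5 of 5 immunoproteasome genes were called, and over all genes 1897 were higher and 3153 lower, against 2619 and 2571 with the scaling used here. With the share of reads outside genes in the model 0 of the 5 immunoproteasome genes were called, at log2 fold changes of 0.82 to 2.09 and edgeR adjusted p of 0.0537 to 0.162. Their median was then 1.59, against 1.04 without this share in the model. Over all genes 264 were then called higher, against 2619 without it.

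Saline against wild type asks what differed in diabetic kidneys without the drug, and it shares the saline libraries with the first comparison. None of the 49 genes was called by edgeR (0 of 49, against 5.12% of all genes tested, 3.21% higher and 1.91% lower). An unadjusted p under 0.05 was seen for 2 of 49, Psme4 (log2 fold change 0.35 ± 0.14) and the assembly chaperone gene Psmg3 (-0.34 ± 0.15), which was named after its values were seen. DESeq2 and limma-voom also called 0. For 0 of 49 genes were the mice free of overlap, against 3.46% of all genes tested that were higher and 3.96% that were lower without overlap. The immunoproteasome genes had a median log2 fold change of -0.21 and adjusted p of 0.558 to 0.795, the constitutive genes a median of -0.06, and all genes tested a median of 0.01. Over all genes 570 were higher and 340 lower, against 503 and 483 with upper-quartile scaling.

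Libraries differed in a second way that moved with the constitutive genes. The 5 libraries with the most reads of several alignments, at 28.1% to 31.8%, were atrasentan mice 2, 3, 5 and 7 and wild type mouse 2, and no saline library reached 27%. These same 5 had the highest median log2 level of the 31 constitutive genes relative to the wild type mean, at 0.25 to 0.37, and the next library was at 0.08. For the immunoproteasome genes the median level was 1.25, 1.72, 1.51, 0.15, 0.71, 0.56 and 0.92 in atrasentan mice, -0.27, -0.21, -0.60, -0.12 and 0.16 in saline mice and 0.04, 0.26, -0.24, -0.25 and 0.03 in wild type mice. Atrasentan mouse 1, under 27%, was the third highest, and atrasentan mouse 4 lay below saline mouse 5 and wild type mouse 2.

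Among the libraries under 27% (3 atrasentan, 5 saline and 4 wild type mice), a limit chosen after seeing the data, 5 of 5 immunoproteasome genes were higher against saline, with a median log2 fold change of 0.83, and 3 of 31 constitutive genes were, with a median of 0.09. Against wild type, 3 of 5 immunoproteasome genes were higher (Psmb8, Psmb9 and Psme1), and 3 constitutive genes were higher and 1 lower, the alpha subunit gene Psma3 (-0.54, edgeR adjusted p = 0.0195), named after its values were seen. In edgeR over all genes, 2428 were then higher and 2816 lower against saline, against 2713 and 3288 with all libraries. What the reads of several alignments share with the constitutive genes was not tested.

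**Figure D4:**
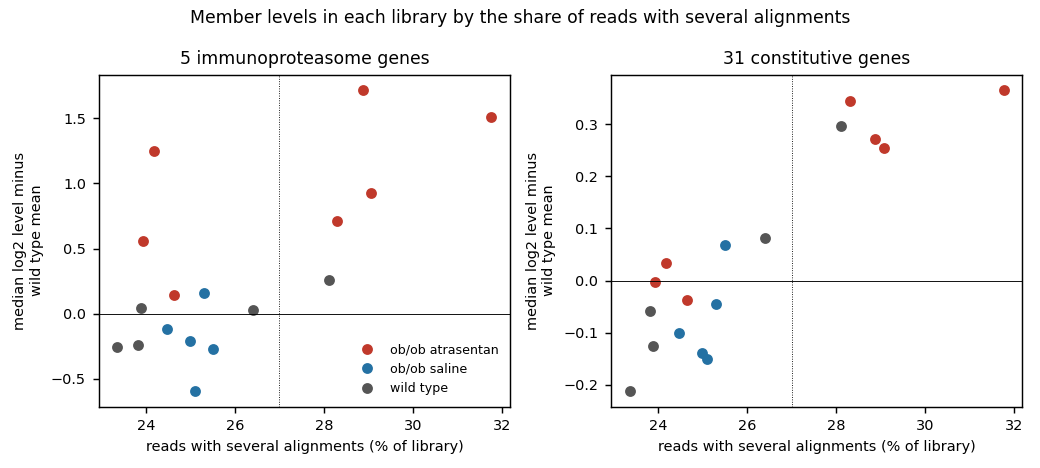
Median log2 level relative to the wild type mean of the 5 immunoproteasome genes (left) and the 31 constitutive genes (right), against the percentage of reads with several alignments, for each of the 17 libraries; the dotted line marks 27%. The 5 libraries right of the line have the 5 highest constitutive medians, at 0.25 to 0.37, whereas for the immunoproteasome genes atrasentan mouse 1, left of the line, reaches 1.25.

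Genes that act with the proteasome were read from lists chosen for this tissue. Beside their counts, 15.3% of all genes tested were called higher against saline, 14.7% against wild type and 3.21% in saline against wild type. In the class I peptide path, which carries proteasome products to the cell surface, 8 of 12 genes were higher and 0 lower against saline (median log2 fold change 1.03), 9 of 12 against wild type (1.06) and 0 of 12 in saline against wild type (0.02). Tap2, a subunit of the peptide transporter, averaged 255 ± 69.3 CPM in atrasentan mice (SD, n = 7), 101 ± 10.3 CPM in saline mice (n = 5) and 109 ± 20.7 CPM in wild type mice (n = 5), a log2 fold change of 1.33 ± 0.18 against saline (edgeR adjusted p = 0.000149). B2m, the light chain of class I molecules, was higher by 1.73 ± 0.24 and the heavy chains H2-D1 by 1.59 ± 0.22 and H2-K1 by 1.71 ± 0.27 against saline (edgeR adjusted p of 0.000172 to 0.000316). Tapbpl, a peptide editor, was higher by 1.24 ± 0.19 against wild type (edgeR adjusted p = 0.000144). Tap1 overlaps Psmb9 by 212 exon bases on the opposite strand, where reads of the 2 genes cannot be told apart.

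Of 15 interferon regulators tested, 9 were higher and 0 lower against saline (median log2 fold change 0.49), 8 against wild type (0.45) and 0 in saline against wild type. Ifnar2, a chain of the type I receptor, averaged 167 ± 19.4 CPM in atrasentan mice (SD, n = 7), 106 ± 7.12 CPM in saline mice (n = 5) and 119 ± 14.1 CPM in wild type mice (n = 5), a log2 fold change of 0.66 ± 0.09 against saline (edgeR adjusted p = 0.000216). Ciita, the coactivator of class II genes, was higher by 2.21 ± 0.47 (edgeR adjusted p = 0.00214), Irf8 by 0.75 ± 0.17 (edgeR adjusted p = 0.00384) and Ifngr1, a chain of the interferon gamma receptor, by 0.45 ± 0.11 (edgeR adjusted p = 0.00501), each against saline. Ifng itself did not pass the low-count filter and had no read in 3 libraries.

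**Figure D5:**
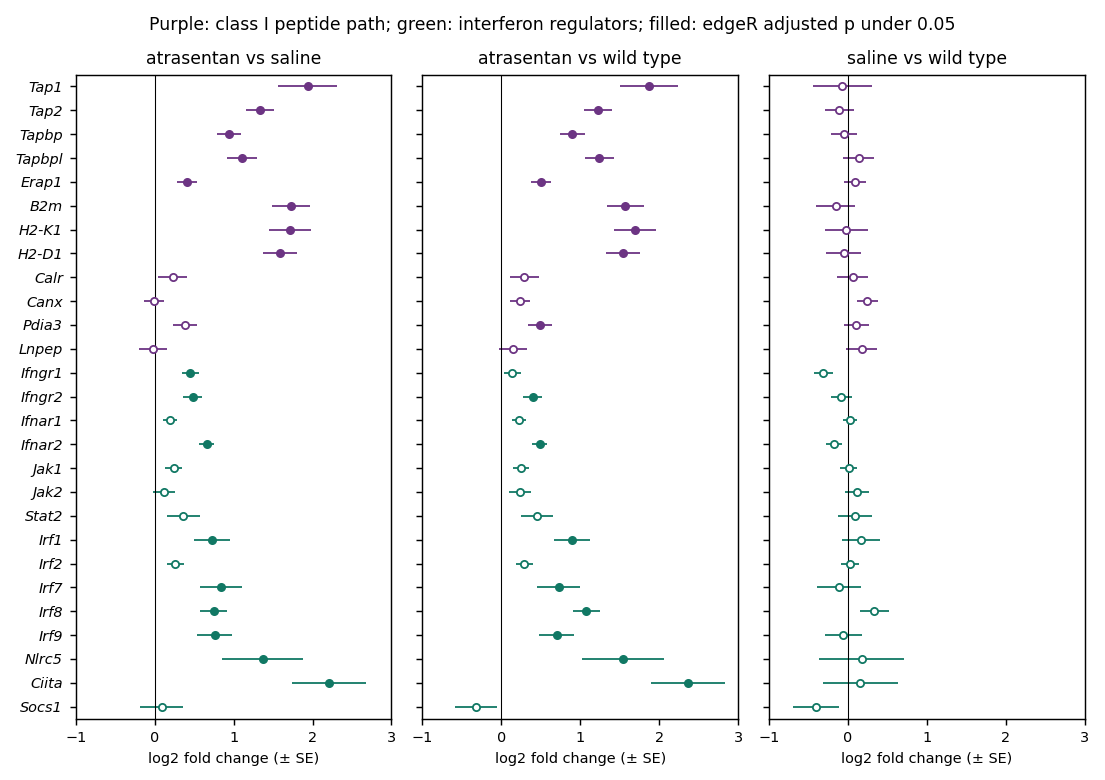
Log2 fold change ± SE of the genes of the class I peptide path (purple) and of the interferon regulators (green) in atrasentan against saline, atrasentan against wild type and saline against wild type; filled points had an edgeR adjusted p under 0.05. In the first panel 8 of 12 purple and 9 of 15 green points are filled, and in the third none are.

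Further lists held genes that act with the constitutive particle, and their counts stand beside the 15.3% of all genes called higher against saline and 14.7% against wild type. Of 11 proteasome partners, 5 were higher against saline (median log2 fold change 0.26) and 1 against wild type (0.11). They were led by Akirin2, which brings proteasomes into the nucleus (0.42 ± 0.08 against saline, edgeR adjusted p = 0.000938, and 0.25 ± 0.08 against wild type, edgeR adjusted p = 0.0229). Pomp, the core assembly factor, was higher by 0.43 ± 0.15 against saline (edgeR adjusted p = 0.0399), Sem1, a small 19S subunit, by 0.56 ± 0.17 (edgeR adjusted p = 0.0205) and Uchl5, a 19S-bound deubiquitinase, by 0.33 ± 0.11 (edgeR adjusted p = 0.0265). Zfand5 was 0.37 lower on the log2 scale in saline than in wild type mice (edgeR log2 fold change -0.37 ± 0.10, adjusted p = 0.042).

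In the list around NRF1, the transcription factor that raises proteasome genes when activity falls short, 1 of 10 genes was higher against saline (Keap1, 0.44 ± 0.10, edgeR adjusted p = 0.003), 5 against wild type, led by the small Maf gene Maff (1.70 ± 0.27, edgeR adjusted p = 0.000231), and 1 in saline against wild type (Maff, 1.12 ± 0.28, edgeR adjusted p = 0.0325). Nfe2l1, which encodes NRF1, averaged 505 ± 85.2 CPM in atrasentan mice (SD, n = 7), 418 ± 43.8 CPM in saline mice (n = 5) and 493 ± 66.8 CPM in wild type mice (n = 5) and was not called in any comparison. Of 14 genes of ubiquitin supply and delivery, 3 were higher against saline, namely Ubb (0.41 ± 0.10), Ufd1 (0.27 ± 0.08) and Vcp (0.18 ± 0.07), with edgeR adjusted p of 0.0068 to 0.0442. Against wild type 4 were higher and 1, the ubiquitin fusion gene Rps27a, lower (-1.04 ± 0.29, edgeR adjusted p = 0.0124).

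Markers of immune cells were read in the same fits. In these, 15.3% of all genes tested were higher and 18.5% lower against saline, and 14.7% were higher against wild type. Of 12 macrophage markers, 9 were higher and 0 lower with atrasentan against saline (median log2 fold change 1.20), and 8 were higher against wild type (1.103). Their summed level ran from 356 to 1544 CPM in atrasentan mice, from 232 to 446 CPM in saline mice and from 238 to 670 CPM in wild type mice, with no marker at 0 in any library. In atrasentan mice 1 to 7 the macrophage sum was 810, 394, 1544, 723, 617, 356 and 458 CPM, beside the immunoproteasome medians given above in the same order. Of 12 lymphocyte markers, 5 were higher against saline (median 0.92) and 2 against wild type (median -0.35), with overlapping sums of 14.6 to 33.8 CPM in atrasentan mice, 10.03 to 18.4 CPM in saline mice and 11.7 to 35.9 CPM in wild type mice. Against saline, 6 of 10 glomerular endothelium and 6 of 10 mesangium markers were higher, while 5 of 10 podocyte and 10 of 10 proximal tubule markers were lower. The part of these cell types in the immunoproteasome result was not tested.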

How the data were processed

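Poly(A) RNA of 17 mice (7 atrasentan, 5 saline, 5 wild type) was sequenced single-end, with a kit that does not mark strand, per the labels' protocols. The authors deposited raw read counts per gene; the tools limma, edgeR, DESeq2, HTSeq and STAR and the build GRCm38 are named, without roles, per the submitters' processing notes. The sources used here give neither the annotation release nor the strand setting of the counting, so overlapping opposite-strand genes cannot be told apart. The 5 HTSeq lines that name no gene (reads with several alignments 23.4% to 31.8%, outside genes 3.17% to 8.58%, ambiguous 2.93% to 3.37%) were kept out of library sizes. A second deposited table of log2 normalized values (17338 genes, transform not stated) served only as an alternative.

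Symbols and coordinates came from GENCODE M21; 53274 IDs had a symbol (99.8%), and 42 of the 50 genes matched with their version. The test was edgeR 4.0.16 in R 4.3.3 on the counts (quasi-likelihood F test, filterByExpr, TMM factors 0.892 to 1.15, 17766 genes, all libraries in 1 fit), two-sided, with Benjamini-Hochberg adjustment over all genes and a threshold of 0.05. CPM use TMM-scaled sizes; log2 CPM have a prior count of 2. Transcript lengths are those of APPRIS principal transcripts. Subunit ratios were tested with exact permutation tests in scipy 1.17.1 (9 tests). Alternatives included limma 3.58.1 and DESeq2 1.42.0, other scalings, no filter, covariates and libraries left out. The edgeR script was tested on simulated data. Within groups, 41 pairs of libraries differed beyond sampling noise (chi-square per degree of freedom 26.5 to 275.2), so each counted once. Named were the immunoproteasome genes, their constitutive counterparts, Psme3, Psme4, Psmf1 and untested genes, up to 5 further called genes with the largest change per comparison and direction, and up to 4 called genes per pathway list with the lowest adjusted p. The genes and lists were chosen with earlier results of these data known. Some genes of the pathway lists are not reported here and are left out of those lists' counts and medians.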

Additional observations from a re-analysis of the deposited data

Results flagged for a closer look

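In 5 of 66 sets of values (each described gene or ratio in a group of 5 or 7 mice), 1 mouse stood apart by Dixon's gap ratio, the distance to its nearest neighbour over the whole range. Chance alone is expected to set apart about 5% of such sets. Psmb9 in wild type had a ratio of 0.737, with mouse 1 at a log2 CPM of 6.28 and the others at 5.28 to 5.54. Psmb9 minus Psmb6 in wild type had a ratio of 0.715, again with mouse 1, at -1.15 against -2.41 to -2.05. Wild type mouse 2 stood apart in Psmd4 (ratio 0.716, 7.41 against 7.09 to 7.18) and in Psmd7 (ratio 0.757, 7.77 against 7.24 to 7.37), and it was the wild type library with the most reads of several alignments, 28.1%. Psmd9 with saline had a ratio of 0.730, with mouse 1 at 5.92 and the others at 5.62 to 5.70.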

How the results depend on the processing

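No paired analysis was possible because the labels number no replicates. Against saline 23 genes were higher; the count was 3 with glomerular share, 6 with reads outside genes and 13 with reads of several alignments as a covariate, 10 without saline mice 1 and 3, 10 among libraries under 27%, and 12 to 28 when 1 library was left out (15 without atrasentan mouse 2, 14 without atrasentan mouse 3 or 5 or saline mouse 2, 12 without saline mouse 3 or 4). The 1 lower gene, Psme4, became 0 with the first 2 covariates and without saline mice 1 and 3, and 0 to 1 when 1 library was left out (0 without atrasentan mouse 1 or 7 or saline mouse 1 or 3). Immunoproteasome genes higher were 2 of 5 with glomerular share, at a median log2 fold change of 1.08 against 1.19 without it, and 5 in every fit that left out 1 library. Against wild type 14 were higher; the count was 1 with reads outside genes, 8 under 27% and 9 to 18 with 1 library left out (9 without wild type mouse 4), and 1 was lower, Psma3, with reads of several alignments as a covariate and 1 under 27%. Of the immunoproteasome genes 0 were higher against wild type with reads outside genes, 3 under 27% and 4 to 5 with 1 library left out. In saline against wild type 1 gene, Psmg3, was lower with reads of several alignments as a covariate, and 0 were called with any 1 library left out. Over all genes 2713 were higher against saline. The number was 427 with glomerular share, 564 with reads outside genes and 1015 without saline mice 1 and 3. It was 2495 with reads of several alignments and 2428 under 27%. Against wild type 2619 of all genes were higher, and 264 with reads outside genes.

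Without saline mice 1 and 3, the ratios in saline against wild type were 0.0216 (Psmb8 minus Psmb5), 0.0231 (Psmb9 minus Psmb6) and 0.18 (Psmb10 minus Psmb7), and Psmb10 minus Psmb7 in atrasentan against saline was 0.83 (adjusted exact permutation p = 0.075). Under 27%, with as few as 3 atrasentan mice, the atrasentan ratios were 1.38, 1.59 and 0.86 against saline. Against wild type they were 1.05, 1.30 and 0.73 (adjusted exact permutation p of 0.161 to 0.171 over both comparisons). Psmb8 minus Psmb5 and Psmb9 minus Psmb6 still did not overlap between atrasentan and saline, and the other atrasentan ratios overlapped. Full separation of these few mice left an unadjusted exact permutation p of 0.0357. Adjusted over 9 tests, no atrasentan ratio could have fallen under 0.05 here, so these p decide nothing. With 1 library left out, Psmb9 minus Psmb6 in saline against wild type ran from -0.32 to 0.0228 (0.0228 without wild type mouse 1).

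Genes that changed sign were not called in the comparison concerned. Against saline, Psmb7 was at 0.0034 with no filter, 0.0633 with glomerular share, 0.0732 without saline mice 1 and 3 and -0.0614 to 0.0511 with 1 library left out; Psme3 at -0.27 with reads outside genes and -0.0305 to 0.0793 with 1 left out; Psmb5 at -0.0206 with reads of several alignments and -0.0788 under 27%; and Psmb6 at -0.0392 under 27%. In saline against wild type, Psmb5 was at -0.0573 with upper-quartile scaling, -0.20 with glomerular share, -0.0868 without saline mice 1 and 3 and -0.031 to 0.14 with 1 left out; Psme3 at -0.0641, -0.0499, -0.082 and -0.0434 to 0.0759 in the same order, and -0.0289 with reads outside genes; Psme4 at -0.028 with glomerular share; Psmb10 at 0.0361 without saline mice 1 and 3; and Psmb7 at 0.0287 under 27% and -0.13 to 0.0284 with 1 left out. Against wild type, Psmb6 was at -0.0084 with upper-quartile scaling, -0.0193 with reads outside genes, -0.10 with reads of several alignments and -0.0871 under 27%; Psme3 at -0.0313 and -0.30 with the first 2 of these; Psme4 at 0.28 with reads outside genes and -0.0883 to 0.0171 with 1 left out; and Psmb7 at -0.13 to 0.0198 with 1 left out. The cause of these shifts was not tested. Depth was lowest for Psma8 and Psmc3ip, whose group means were 2.82 to 4.29 CPM.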
